A study of Homo sapiens with 9 samples.

Results

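The 9 genes ATP2A2, ATP2A3, ATP2B1, ATP2B4, ATP2C1, MCU, MICU2, SLC8B1 and TMCO1 encode calcium pumps, parts of the mitochondrial calcium uptake and release routes and an endoplasmic reticulum calcium channel. They were taken by symbol from a table of 61093 genes, and all 9 matched 1 row each. Every one passed the filter on low values, which 17492 genes passed (normalized counts no lower than 10 in 3 or more libraries). The 9 RNA-seq libraries, 3 in each of 3 groups, came from cells that the labels call HepG2, an established human liver cancer line. One group received 2-APB (2-aminoethoxydiphenyl borate), which the series text calls a TRPV2 agonist, another received SKF-96365, which it calls a TRPV2 inhibitor, and the control cells have no treatment listed. The treatment label was used to place the 2-APB libraries, since the titles spell the compound ABP and the value columns are named for TRPV2. Dose, duration, vehicle and culture are not given in the sources used here, and p-values measure the spread between these samples, which may be technical.

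A cell keeps cytosolic calcium low by pumping it out or into stores at the cost of ATP. SERCA pumps (the ATP2A genes) fill the endoplasmic reticulum, PMCA pumps (the ATP2B genes) export calcium across the plasma membrane, and the SPCA pump of ATP2C1 loads the Golgi with calcium and manganese. Mitochondria take up calcium through the pore protein MCU, which the calcium-sensing protein MICU2 helps keep shut at rest, and SLC8B1 (NCLX) has been described as the exchanger that returns it to the cytosol in return for sodium. TMCO1 is described as a channel that lets calcium leave an overfilled endoplasmic reticulum. SKF-96365 is widely used as a blocker of receptor-operated and store-operated calcium entry, and 2-APB also acts on IP3 receptors and store-operated entry, so neither compound is specific to 1 channel.

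The libraries held 14786059 to 19026545 reads. Markers of the labelled cell type were nearly absent, and whether the cells are the labelled line was not tested. Of 14 hepatocyte markers 1 passed the filter, SERPINA1 (alpha-1-antitrypsin), and ALB (albumin) had a mean of 4.24 normalized counts. APOC3 was at 0 in all 9 libraries, and the summed level of the 14 hepatocyte markers was 16.6 to 21.7 CPM (reads of a gene scaled to library size) with 2-APB, 20.3 to 25.3 with SKF-96365 and 13.0 to 32.8 in control. KRT8, a simple-epithelial keratin, led the 5 epithelial markers with a mean of 79421. SPARC, a matrix protein gene, led the 9 mesenchymal markers with 32763. Both lists were uneven. The keratin genes KRT18 and KRT19 had means of 41837 and 8345, whereas CDH1 had 42.4 and EPCAM, at 6.32, missed the filter. Of the mesenchymal markers, VIM had a mean of 31329, COL1A1 174 and COL1A2 13.7. The 9 mesenchymal markers summed to 4294 to 4543 CPM with 2-APB, 4257 to 5028 with SKF-96365 and 3727 to 4767 in control, and the 5 epithelial markers to 8287 to 8705, 6533 to 7483 and 6921 to 8744 in the same order. Endothelial, leukocyte and muscle markers each summed to at most 6.44 CPM in any library. The libraries did not sort by group. Over the 17492 genes, control 3 had a Pearson r of 0.988 and 0.986 with SKF-96365 2 and 3, and of 0.961 and 0.957 with control 1 and 2. A first principal component (43.9% of the variance) set these 3 libraries at 48.4 to 48.8 and the other 6 at or below -3.67. SKF-96365 1 was closest to 2-APB 3 (r = 0.988). Results are therefore also given without control 3 and SKF-96365 1, and without 2-APB 3 as well. In bulk RNA a change in the mix of cells and a change per cell cannot be told apart.

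Promoter windows of 300 bases (250 before and 50 after a start site) were held by RefSeq (GRCh38.p14) for 8 of the 9 genes, in 14 windows; ATP2A3 has none there. A total of 3 windows are shown because the results below turn on these genes: ATP2A2 is the most abundant gene per length, ATP2B4 has the largest difference between groups, and MCU is among the steadiest genes measured. Capitals mark GC boxes (GGGCGG on either strand) and, in ATP2A2, the element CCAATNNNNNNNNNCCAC.
ATP2A2 promoter, chr12:110280997-110281296, plus strand: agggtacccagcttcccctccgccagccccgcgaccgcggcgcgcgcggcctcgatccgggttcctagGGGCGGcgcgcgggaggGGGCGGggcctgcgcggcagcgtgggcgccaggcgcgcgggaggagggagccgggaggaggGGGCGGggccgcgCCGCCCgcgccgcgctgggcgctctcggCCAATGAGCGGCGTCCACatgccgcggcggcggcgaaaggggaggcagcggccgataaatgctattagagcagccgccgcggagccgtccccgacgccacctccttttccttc
ATP2B4 promoter, chr1:203626582-203626881, plus strand: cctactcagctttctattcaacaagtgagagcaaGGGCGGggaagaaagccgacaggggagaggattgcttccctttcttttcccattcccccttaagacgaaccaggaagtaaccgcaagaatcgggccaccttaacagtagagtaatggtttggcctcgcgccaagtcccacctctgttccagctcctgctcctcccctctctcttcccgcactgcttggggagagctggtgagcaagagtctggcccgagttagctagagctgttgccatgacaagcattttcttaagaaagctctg
MCU promoter, chr10:72691893-72692192, plus strand: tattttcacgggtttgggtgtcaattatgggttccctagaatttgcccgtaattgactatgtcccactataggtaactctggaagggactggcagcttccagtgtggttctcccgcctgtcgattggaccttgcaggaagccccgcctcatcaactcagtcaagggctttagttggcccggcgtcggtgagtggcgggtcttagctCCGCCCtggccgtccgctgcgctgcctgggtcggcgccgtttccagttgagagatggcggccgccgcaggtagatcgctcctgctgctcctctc
The endoplasmic reticulum stress element is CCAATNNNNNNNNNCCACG, and ATP2A2 holds it without the last base. The form without that base was in 0.316% of 35116 promoter windows of the same length searched on both strands. That share includes windows with the complete element. The complete element was in 0.0769% of windows and in none of the 14. The cAMP response element TGACGTCA, which CREB binds, was in 1.85% of all windows and in 0 of the 14. Its shorter core TGACG was in 24.6% of all windows and in 4 of the 14, those of ATP2A2, ATP2B1 and ATP2C1. The ATP2A2 window shown has 0 such matches, since they lie in another window of that gene, chr12:110280366-110280665. MCU also has another window that is not shown. A GC box was in 44.95% of all windows and in 10 of the 14, with 4 GC boxes in the ATP2A2 window shown and 1 each in those of ATP2B4 and MCU. These are matches of letters only, and GC boxes were not compared at equal GC content, which was 78.0% in the ATP2A2 window, 53.3% in that of ATP2B4 and 59.0% in that of MCU, against a median of 58.7% over all windows.

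Per kilobase of annotated exon (GENCODE 29 union lengths, an approximation since the isoforms made here are not known), the order of normalized counts was ATP2A2, ATP2C1, ATP2B4, TMCO1, ATP2B1, MCU, MICU2, SLC8B1 and ATP2A3. ATP2A2 stood at 551 ± 60.3 per kilobase over the 9 libraries (SD, n = 9) and ATP2A3 at 23.3 ± 4.40, and the ranges of ATP2A2 and of the next gene, ATP2C1 (320 ± 39.6), did not overlap. ATP2B4 (273 ± 77.5) and TMCO1 (270 ± 34.2) were not separable, as ATP2B4 was the higher in 3 of 9 libraries. The ranges of ATP2C1 and ATP2B4, of TMCO1 and ATP2B1, of ATP2B1 (175 ± 37.8) and MCU (141 ± 8.10), and of MCU and MICU2 (116 ± 6.73) also overlapped. Within single libraries TMCO1 was above ATP2B1, and MCU above MICU2, in 9 of 9. SLC8B1 (77.2 ± 7.49) lay apart from both of its neighbours. The lowest read number behind any value was 93 reads for ATP2A3 in control 2 (95% exact Poisson interval 75.1 to 114), and for the other 8 genes it was 397 or more. Such intervals cover counting error only.

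No gene of the 9 passed limma's test in any comparison. Over all 17492 genes, the share called higher and the share called lower at an adjusted p under 0.05 were 0% in each comparison, and also 0% by the F test over the 3 groups, whose lowest adjusted p was 0.862, with 704 genes under 0.05 before adjustment. At an unadjusted p under 0.05 the counts were 0 of 9 for 2-APB against control (2.80% of all genes), 0 of 9 for SKF-96365 against control (4.00% of all genes) and 0 of 9 for 2-APB against SKF-96365 (7.30% of all genes). On recovered reads of all 9 libraries edgeR also called 0 genes in each comparison, and DESeq2 called 0 with 2-APB against control, 1 with SKF-96365 against control and 7 between the compounds, none of the 9 among them. Leaving out control 3 alone, limma called 173 genes for SKF-96365 against control and 4 between the compounds. The median log2 fold change of the 9 genes was -0.10 with 2-APB against control, 0.01 with SKF-96365 against control and 0.01 with 2-APB against SKF-96365, beside -0.0016, -0.0043 and 0.0073 over all genes tested. The 95% interval of the fold change lay within 1.5-fold in either direction for 6 of the 9 genes in both comparisons with control, and for 7 of 9 between the compounds. The exceptions were ATP2A3 and ATP2B4 in all 3 and ATP2B1 in those with control.

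**Figure D1:**
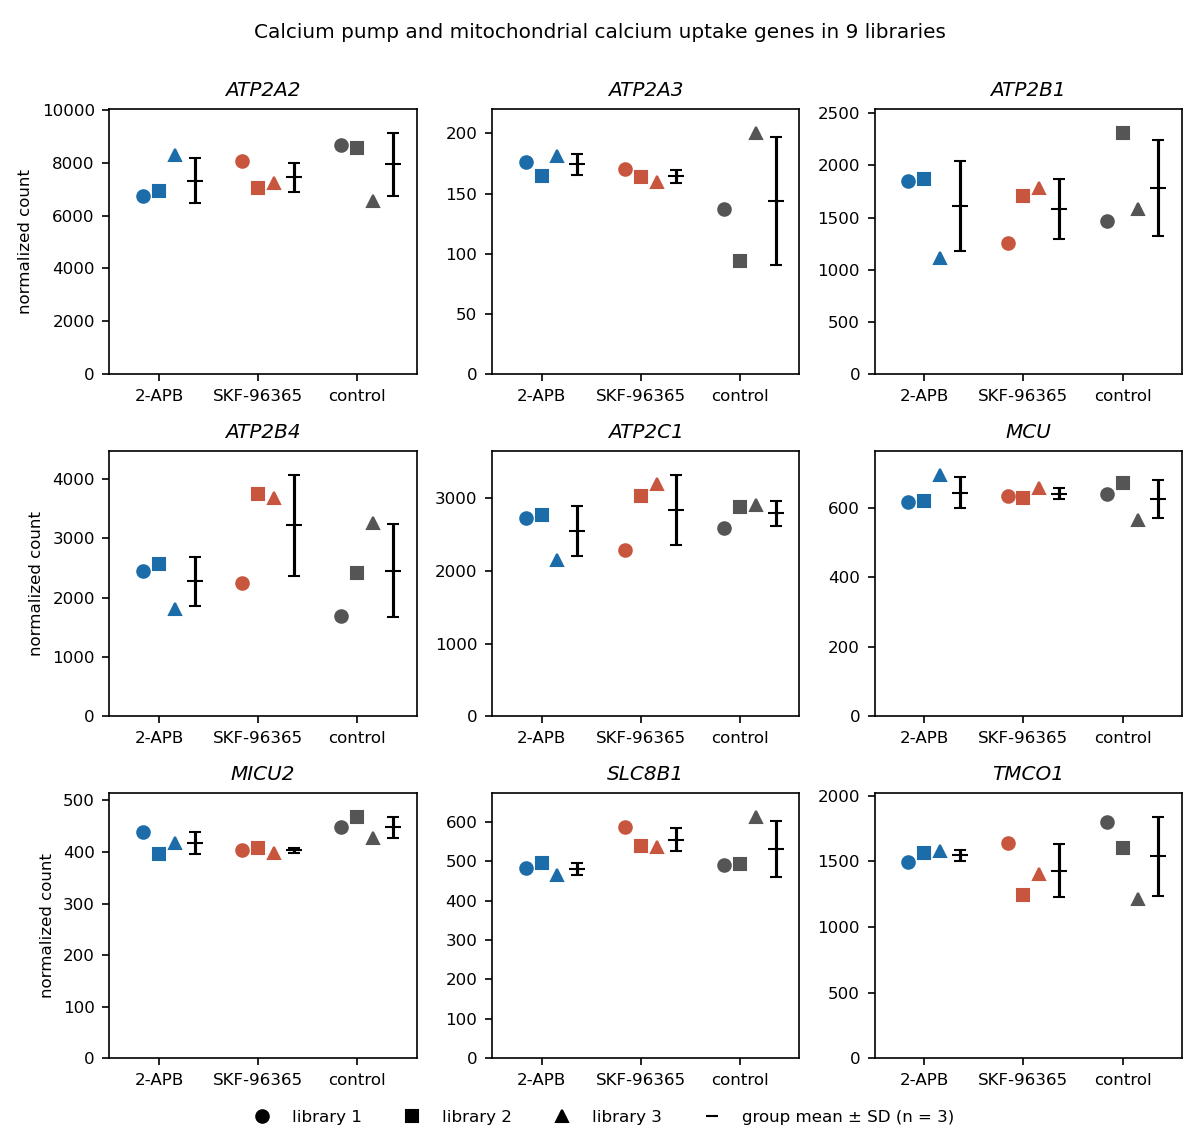
Normalized count (y axis, from 0) of each of the 9 genes in the 3 libraries of the 2-APB, SKF-96365 and control groups (x axis); symbols give the library number, and bars the group mean ± SD (n = 3). The groups overlap in most panels; ATP2B4 spans 1689 to 3742 over the libraries and MCU 566 to 695.

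ATP2A2 encodes SERCA2, the calcium pump that fills the endoplasmic reticulum in most tissues. Its normalized count was 6741, 6923 and 8300 in 2-APB 1 to 3, 8050, 7042 and 7235 in SKF-96365 1 to 3, and 8672, 8576 and 6563 in control 1 to 3. The lowest library of all was control 3 and the highest control 1, so the controls spanned both treated groups. Group means were 7321 ± 852 with 2-APB, 7442 ± 535 with SKF-96365 and 7937 ± 1191 in control (SD, n = 3 each). The log2 fold change was -0.11 (SE 0.14; limma adjusted p = 0.9995) with 2-APB and -0.08 (SE 0.14; adjusted p = 0.865) with SKF-96365 against control, and -0.03 (SE 0.14; adjusted p = 0.961) between the compounds, where the sign turned to 0.05 under quantile normalization and 0.03 under total scaling. With 1 library left out, the value with 2-APB against control reached -0.24 (control 3 out) and -0.04 (control 1 out). With SKF-96365 against control the same omissions gave -0.22 and -0.01.

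ATP2A3 encodes SERCA3, a lower-affinity pump found in blood, epithelial and some other cells. It was measured at 176, 165 and 181 in 2-APB 1 to 3, 170, 163 and 160 in SKF-96365 1 to 3, and 137, 94.3 and 200.4 in control 1 to 3. Both treated groups were tight, at 174 ± 8.49 with 2-APB and 164 ± 5.39 with SKF-96365, and lay within the range of the controls, at 144 ± 53.4 (SD, n = 3 each). The log2 fold changes of 0.34 (SE 0.24; limma adjusted p = 0.9995) with 2-APB and 0.26 (SE 0.24; adjusted p = 0.792) with SKF-96365 against control rested on single controls. Leaving out control 2 brought them to 0.07 and -0.01, and leaving out control 3 to 0.61 and 0.53. Between the compounds it was 0.08 (SE 0.24; adjusted p = 0.924), and 0.05 without 2-APB 3. The muscle pump gene ATP2A1 had a mean of 144 over the 9 libraries and the largest t of its list between the compounds (-0.15, SE 0.19; adjusted p = 0.821). PLN, whose peptide phospholamban restrains SERCA2 in heart, had a mean of 0.939.

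TMCO1 was at 1499, 1567 and 1576 in 2-APB 1 to 3, 1644, 1242 and 1403 in SKF-96365 1 to 3, and 1802, 1604 and 1213 in control 1 to 3. The 2-APB libraries lay close together, and the lowest values of all were those of control 3 and SKF-96365 2. Means were 1547 ± 42.4 with 2-APB, 1429 ± 202 with SKF-96365 and 1539 ± 300 in control (SD, n = 3 each). The log2 fold change was 0.03 (SE 0.16; limma adjusted p = 0.9995) with 2-APB and -0.10 (SE 0.16; adjusted p = 0.860) with SKF-96365 against control, and 0.12 (SE 0.16; adjusted p = 0.821) between the compounds. The last ran from 0.03 without SKF-96365 2 to 0.23 without SKF-96365 1, and both comparisons with control took either sign as single libraries were left out. Exons of TMCO1 overlap those of UCK2, a uridine-cytidine kinase gene on the opposite strand with a mean of 1893. Whether counting used strand is not given in the sources used here, so reads of the shared stretch could belong to either gene.

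ATP2B1 encodes PMCA1, the plasma membrane pump present in nearly all cells. Its counts were 1854, 1868 and 1116 in 2-APB 1 to 3, 1254, 1705 and 1786 in SKF-96365 1 to 3, and 1463, 2310 and 1577 in control 1 to 3. The lowest libraries were 2-APB 3 and SKF-96365 1, which resembled each other across all genes, and the highest was control 2. Means of 1613 ± 430 with 2-APB, 1582 ± 287 with SKF-96365 and 1783 ± 460 in control (SD, n = 3 each) differed by less than the spread within a group. The log2 fold change was -0.15 (SE 0.24; limma adjusted p = 0.9995) with 2-APB and -0.16 (SE 0.24; adjusted p = 0.850) with SKF-96365 against control. It was 0.01 (SE 0.24; adjusted p = 0.996) between the compounds, with a 95% interval of -0.53 to 0.54. Leaving out control 2 turned both comparisons with control positive, to 0.05 and 0.04, and leaving out 2-APB 3 turned that with 2-APB to 0.09.

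ATP2B4 encodes PMCA4, the other widely expressed plasma membrane pump, and had the largest log2 fold change of the 9 genes in both comparisons with SKF-96365. It was at 2457, 2575 and 1804 in 2-APB 1 to 3, 2239, 3742 and 3678 in SKF-96365 1 to 3, and 1689, 2413 and 3266 in control 1 to 3. The 3 highest libraries were SKF-96365 2, SKF-96365 3 and control 3, and the lowest were control 1 and 2-APB 3. Means were 2279 ± 415 with 2-APB, 3220 ± 850 with SKF-96365 and 2456 ± 790 in control (SD, n = 3 each). The log2 fold change was -0.07 (SE 0.27; limma adjusted p = 0.9995) with 2-APB and 0.40 (SE 0.27; adjusted p = 0.789) with SKF-96365 against control. Between the compounds it was -0.48 (SE 0.27; unadjusted p = 0.101; adjusted p = 0.700), with a 95% interval of -1.07 to 0.11. In size, 78.3% of genes had a log2 fold change no larger than that with SKF-96365 against control, and 82.4% no larger than that between the compounds. The value with SKF-96365 ran from 0.16 without control 1 to 0.65 without SKF-96365 1, and between the compounds from -0.72 without SKF-96365 1 to -0.32 without 2-APB 3. With 2-APB against control the sign turned without control 3 (0.16) or without 2-APB 3 (0.09).

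ATP2C1, the Golgi pump gene, was at 2728, 2778 and 2154 in 2-APB 1 to 3, 2288, 3033 and 3197 in SKF-96365 1 to 3, and 2593, 2881 and 2907 in control 1 to 3. As for ATP2B1, the lowest libraries were 2-APB 3 and SKF-96365 1. Means were 2553 ± 347 with 2-APB, 2840 ± 485 with SKF-96365 and 2794 ± 174 in control (SD, n = 3 each). The log2 fold change was -0.14 (SE 0.15; limma adjusted p = 0.9995) with 2-APB and 0.01 (SE 0.15; adjusted p = 0.985) with SKF-96365 against control, and -0.15 (SE 0.15; adjusted p = 0.785) between the compounds. With 2-APB against control it ran from -0.20 without 2-APB 2 to -0.02 without 2-APB 3, and between the compounds from -0.30 without SKF-96365 1 to -0.03 without 2-APB 3. With SKF-96365 against control it ran from -0.08 without SKF-96365 3 to 0.16 without SKF-96365 1. An antisense neighbour with shared exons, ASTE1, had a mean of 142.

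**Figure D2:**
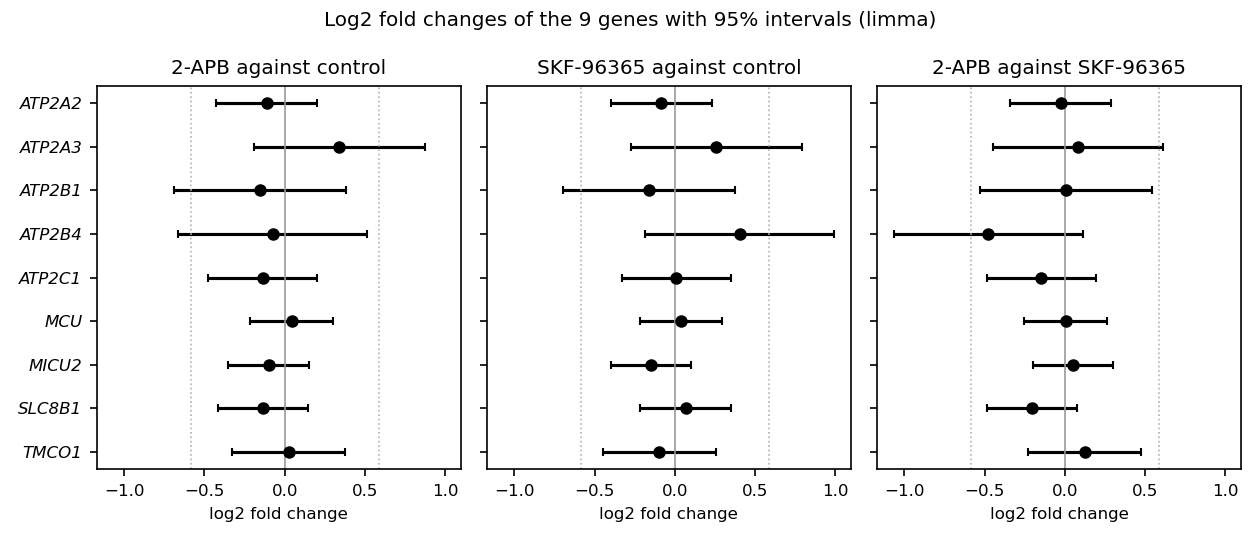
Log2 fold change (x axis) of each of the 9 genes (rows) in the 3 comparisons, with 95% intervals from limma's fit to all 9 libraries; dotted lines mark a change of 1.5-fold. Every interval includes 0, and the widest are those of ATP2B4, ATP2B1 and ATP2A3.

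MCU, the pore of the mitochondrial uniporter, was at 617, 621 and 695 in 2-APB 1 to 3, 634, 630 and 659 in SKF-96365 1 to 3, and 641, 670.5 and 566 in control 1 to 3. The whole range, lowest in control 3 and highest in 2-APB 3, was 1.23-fold. Means were 644 ± 44.0 with 2-APB, 641 ± 15.5 with SKF-96365 and 626 ± 54.1 in control (SD, n = 3 each). The fold change was 1.03 with 2-APB against control (95% interval 0.862 to 1.23; limma adjusted p = 0.9995) and 1.03 with SKF-96365 against control (0.859 to 1.23; adjusted p = 0.928). Between the compounds it was 1.00 (0.840 to 1.20; adjusted p = 0.992).

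MICU2, a calcium-sensing gatekeeper of the uniporter, was at 440, 397 and 418 in 2-APB 1 to 3, 404, 408 and 399 in SKF-96365 1 to 3, and 448, 468 and 427 in control 1 to 3. All 3 SKF-96365 libraries lay below all 3 controls. Means were 418 ± 21.4 with 2-APB, 403 ± 4.65 with SKF-96365 and 448 ± 20.4 in control (SD, n = 3 each). The log2 fold change was -0.15 (SE 0.11; unadjusted p = 0.220; limma adjusted p = 0.789) with SKF-96365 and -0.10 (SE 0.11; adjusted p = 0.9995) with 2-APB against control, and 0.05 (SE 0.11; adjusted p = 0.903) between the compounds. With SKF-96365 it ran from -0.18 without control 3 to -0.12 without control 2, so MICU2 was below control in each of these fits, and it did not pass the test in any. With 2-APB against control it was -0.06 without 2-APB 2, and between the compounds it ran from 0.01 without 2-APB 1 to 0.09 without 2-APB 2. MICU2 was the only member whose SKF-96365 and control libraries did not overlap, 1 of 9 (11.1%), against 6.20% of all genes. With 2-APB against control this held for 0 of 9, against 7.57% of all genes.

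SLC8B1, the mitochondrial sodium-calcium exchanger gene, was at 483, 495 and 464 in 2-APB 1 to 3, 588, 540 and 536 in SKF-96365 1 to 3, and 489, 492 and 613 in control 1 to 3. The 2-APB libraries all lay below the SKF-96365 libraries, and control 3 was the highest of all. Means were 481 ± 15.3 with 2-APB, 554 ± 29.1 with SKF-96365 and 531 ± 70.4 in control (SD, n = 3 each). Between the compounds the log2 fold change was -0.20 (SE 0.13; unadjusted p = 0.138; limma adjusted p = 0.702) with a 95% interval of -0.49 to 0.08, and it ran from -0.23 without SKF-96365 3 to -0.16 without SKF-96365 1. Against control it was -0.14 (SE 0.13; adjusted p = 0.9995) with 2-APB and 0.07 (SE 0.13; adjusted p = 0.879) with SKF-96365. Without control 3 these were -0.03 and 0.17, and without control 1 they came to -0.19 and 0.01. SLC8B1 was the only member whose libraries did not overlap between the compounds, 1 of 9 (11.1%), against 17.0% of all genes.

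**Figure D3:**
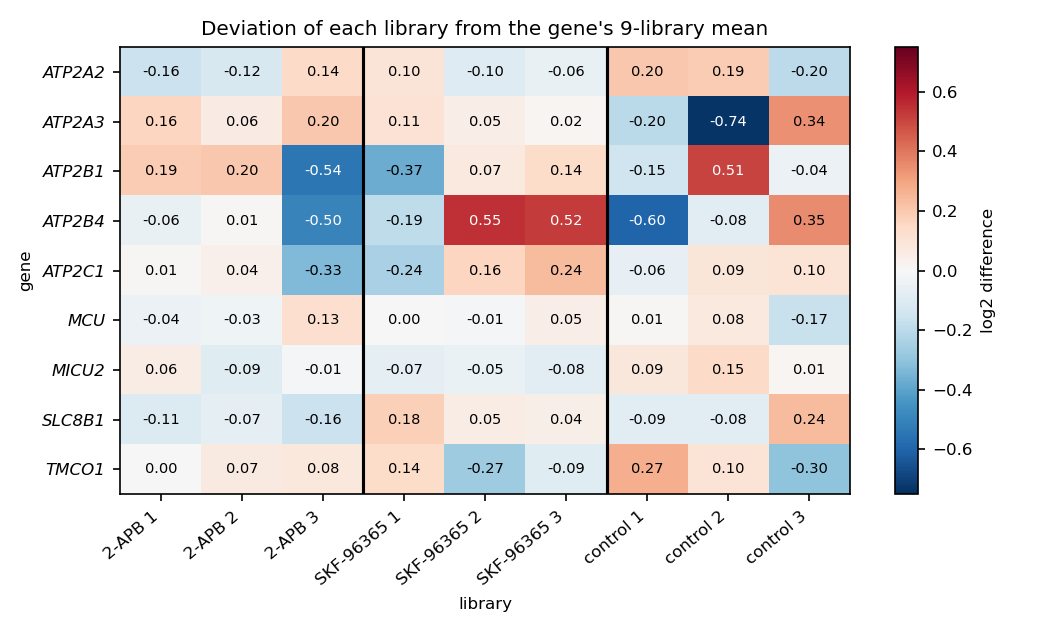
Log2 difference of each library (columns, by group) from the 9-library mean of each gene (rows). The MCU and MICU2 rows stay within -0.17 to 0.15, whereas ATP2B4 runs from -0.60 in control 1 to 0.55 in SKF-96365 2.

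The spread over libraries differed between the genes. The coefficient of variation over the 9 libraries was 5.77% for MCU and 5.80% for MICU2, at the percentiles 2.05 and 2.10 among the genes tested, whose median was 20.3%. Among genes within 2-fold of the same mean they stood at the percentiles 3.05 (5041 genes) and 1.85 (4822 genes). SLC8B1 (9.71%), ATP2A2 (10.96%), ATP2C1 (12.4%), TMCO1 (12.7%) and ATP2A3 (18.8%) lay between. ATP2B1 (21.6%) and ATP2B4 (28.4%) were the most variable of the 9, at the percentiles 84.6 and 93.1 among genes of like level. Among all genes tested, ATP2B1 and ATP2B4 stood at the percentiles 53.1 and 67.7. These are descriptions of 9 libraries that include all 3 groups.

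**Figure D4:**
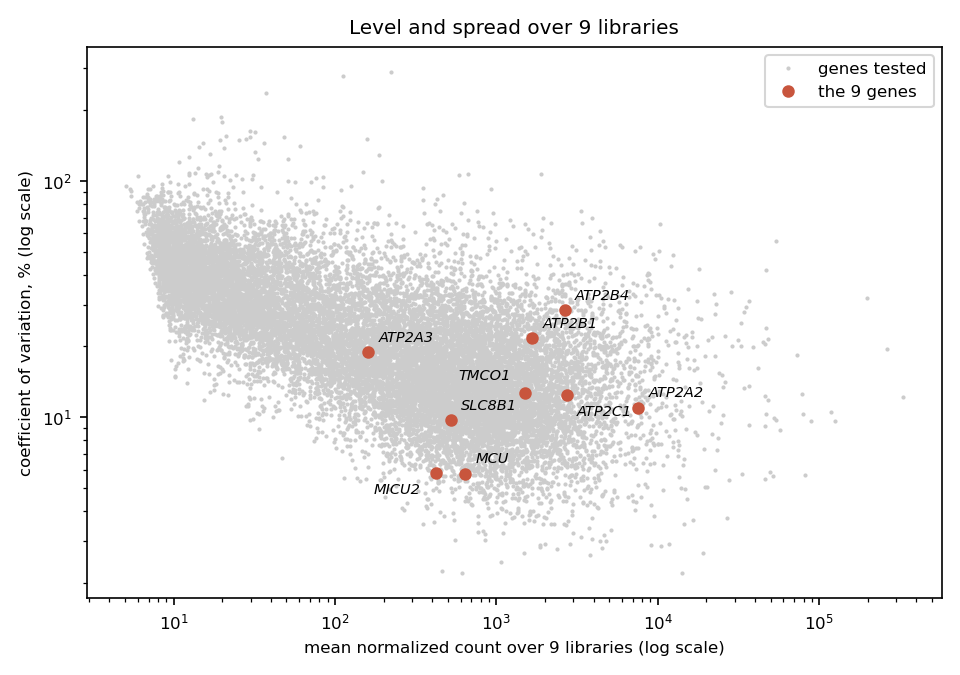
Coefficient of variation over the 9 libraries (y axis, log scale) against mean normalized count (x axis, log scale) for the 17492 genes tested (grey) and the 9 genes (red). MCU (5.77%) and MICU2 (5.80%) lie at the lower edge, ATP2B1 (21.6%) and ATP2B4 (28.4%) high for their level.

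Ratios within a library do not depend on how libraries are scaled, and were described without a test. The log2 ratio of ATP2B4 to ATP2B1, the 2 plasma membrane pumps, was 0.41, 0.46 and 0.69 in 2-APB 1 to 3, 0.84, 1.13 and 1.04 in SKF-96365 1 to 3, and 0.21, 0.06 and 1.05 in control 1 to 3. It was 0.84 or more in each SKF-96365 library and in control 3, and 0.69 or less in the other 5. The log2 ratio of MICU2 to MCU averaged -0.62 ± 0.12 with 2-APB, -0.67 ± 0.05 with SKF-96365 and -0.48 ± 0.06 in control (SD, n = 3 each), with a range of -0.73 to -0.41. All 3 controls lay above all 3 SKF-96365 libraries, while 2-APB 1 lay among the controls. MICU2 alone already separated these groups. How often other pairs of genes separate groups was not computed for this ratio or that of ATP2B4 to ATP2B1. Of single genes, 6.20% separated SKF-96365 from control and 17.0% the compounds. The log2 ratio of SLC8B1 to MCU averaged -0.42 ± 0.14 with 2-APB, -0.21 ± 0.09 with SKF-96365 and -0.24 ± 0.31 in control, where control 3 stood at 0.11. That of ATP2A3 to ATP2A2 averaged -5.38 ± 0.13 with 2-APB, -5.49 ± 0.07 with SKF-96365 and -5.83 ± 0.74 in control, from -6.49 in control 2 to -5.03 in control 3 (SD, n = 3 each).

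**Figure D5:**
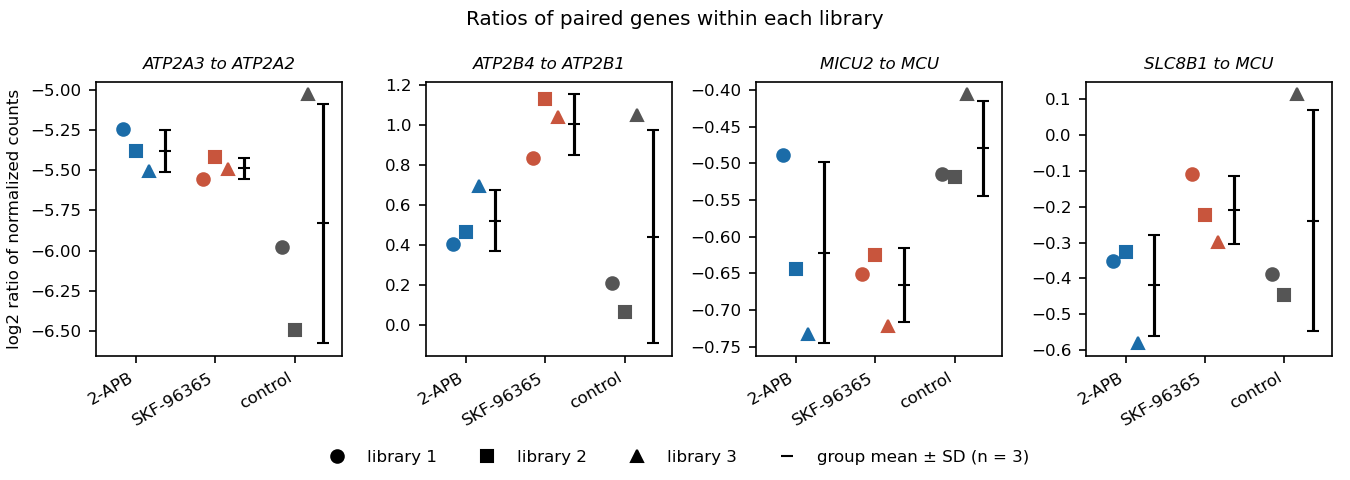
Log2 ratio of normalized counts (y axis, a separate range in each panel) for 4 pairs of genes in the 3 libraries of each group (x axis); symbols give the library number and bars the group mean ± SD (n = 3). The ATP2B4 to ATP2B1 ratio is between 0.84 and 1.13 in the SKF-96365 libraries and between 0.41 and 0.69 in the 2-APB libraries. How often other pairs of genes separate groups was not computed.

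With some libraries left out, some members passed the test, as did many other genes. Control 3, SKF-96365 1 and 2-APB 3 were left out because of their position, which makes p-values of such fits too small. Each group then has 2 or 3 libraries. The choice followed no uniform rule. By mean Pearson r, 2-APB 3 was closest to its own group (0.980, against 0.974 to control). Control 1 and 2 were closer to 2-APB (0.982 and 0.975) than to the other controls, control 3 included (0.969 and 0.968), and were kept. Without control 3 and SKF-96365 1, limma called 28.1% of 17039 genes for SKF-96365 against control and 2 of the 9 (22.2%): ATP2B4 at 0.88 (adjusted p = 0.0113) and TMCO1 at -0.36 (adjusted p = 0.0338). It called 13.3% of genes between the compounds and 1 of the 9 (11.1%), ATP2B4 at -0.72 (adjusted p = 0.0309), and 0% of genes for 2-APB against control. Without 2-APB 3 as well, the shares were 38.7% of 16796 genes for SKF-96365 against control and 3 of 9 (33.3%), with ATP2A2 at -0.27 (adjusted p = 0.0110) beside ATP2B4 (0.88, adjusted p = 0.00200) and TMCO1 (-0.36, adjusted p = 0.0153). They were 10.7% for 2-APB against control with ATP2A2 at -0.34 (adjusted p = 0.0197), and 15.3% between the compounds with ATP2B4 at -0.56 (adjusted p = 0.0341). In each comparison the share of members called lay at or near the share of all genes. MCU, MICU2, SLC8B1, ATP2A3, ATP2B1 and ATP2C1 were called in neither fit.

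The genes whose log2 levels ran most like each member over the 9 libraries are given as likeness only, with no test, since all points share libraries and scaling and 3 libraries stand together. Among 12380 genes with a mean of at least 50, ATP2A2 was most like DIAPH3, a formin gene (Pearson r = 0.992), NUP214, a nuclear pore gene (0.988), and RRP1, a ribosomal RNA processing gene (0.982). ATP2A3 was most like DUS4L, SLC9A5 and KNDC1 (0.976, 0.973 and 0.962), and ATP2B1 most like ZBTB44, ME1, which encodes cytosolic malic enzyme, and OGDH (0.989, 0.980 and 0.975). OGDH encodes a subunit of the calcium-sensitive 2-oxoglutarate dehydrogenase of mitochondria. ATP2B4 was most like C1S, a complement protease gene, FZD5, a Wnt receptor gene, and SEMA3A, a guidance cue gene (0.985, 0.985 and 0.984). ATP2C1 ran with PREPL, SLC38A2, an amino acid transporter gene, and TP53BP1 (0.988, 0.986 and 0.986), and TMCO1 with INTS6, CBX1 and DHX15 (0.983, 0.982 and 0.978). The closest genes were less alike for the steadier members, with CYFIP1, THOC3 and SNX24 for MCU (0.904, 0.848 and 0.833), REPIN1, EHMT2 and MAZ for MICU2 (0.945, 0.935 and 0.929), and MRPL33, the unnamed ENSG00000261324 and SLC20A1-DT for SLC8B1 (0.928, 0.921 and 0.903).

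The rest of the calcium handling machinery was taken from 8 lists with 101 entries, of which 85 entered the tests, the members included. None of the 85 passed limma's test in any comparison, in either direction. At an unadjusted p under 0.05 there were 2 of 85 with 2-APB against control (2.35%, against 2.80% of all genes), 1 with SKF-96365 against control (1.18%, against 4.00%) and 6 between the compounds (7.06%, against 7.30%). The median log2 fold change of the 85 was -0.03, 0.00 and 0.01 in these comparisons. Groups did not overlap for 7 of the 85 with 2-APB against control (8.24%, against 7.57% of all genes). With SKF-96365 against control this held for 4 (4.71%, against 6.20%), and between the compounds for 12 (14.1%, against 17.0%). In each list the gene with the highest mean and the one with the largest moderated t are named below where they are not members.

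Among 10 tested genes of the uniporter complex and its assembly, SMDT1, which encodes the EMRE subunit that the pore needs to conduct calcium, was the one with an unadjusted p under 0.05. It was at 93.2, 73.9 and 99.6 in 2-APB 1 to 3, 80.4, 61.7 and 57.5 in SKF-96365 1 to 3, and 101.0, 85.2 and 89.7 in control 1 to 3. The SKF-96365 libraries all lay below the controls, where 6.20% of all genes showed no overlap in either direction. The log2 fold change was -0.47 (SE 0.21; unadjusted p = 0.0471; limma adjusted p = 0.789). MAIP1, which assists the assembly of EMRE, had the largest t with 2-APB against control (-0.20, SE 0.22; adjusted p = 0.9995), and SPG7, a subunit of the matrix protease that trims EMRE, the highest mean (5154).

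Among 13 genes of mitochondrial calcium release, exchange and outer membrane channels, SLC25A25, an ATP-magnesium and phosphate carrier gated by calcium, had the smallest p of all 85. It was at 157, 155 and 186 in 2-APB 1 to 3, 252, 265 and 235 in SKF-96365 1 to 3, and 249, 246 and 236 in control 1 to 3. All 3 2-APB libraries lay below the other 6. Of all genes, 7.57% showed no overlap with 2-APB against control and 17.0% between the compounds. The log2 fold changes of SLC25A25 were -0.56 (SE 0.14; unadjusted p = 0.00253; limma adjusted p = 0.9995) against control and -0.60 (SE 0.14; unadjusted p = 0.00163; adjusted p = 0.684) against SKF-96365. VDAC1, the main outer membrane channel gene, had the highest mean (5703), and LETM1, an inner membrane cation exchanger gene, the largest t with SKF-96365 against control (-0.39, SE 0.23; adjusted p = 0.789).

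At contacts between endoplasmic reticulum and mitochondria, ITPR3, an IP3 receptor gene, was at 4001, 4069 and 5904 in 2-APB 1 to 3, 6443, 7183 and 7123 in SKF-96365 1 to 3, and 5353, 6002 and 6805 in control 1 to 3. The 2-APB libraries lay below those of SKF-96365, where 17.0% of all genes showed no overlap in either direction. The log2 fold changes of ITPR3 were -0.59 (SE 0.16; unadjusted p = 0.00415; limma adjusted p = 0.684) between the compounds and -0.40 (SE 0.16; unadjusted p = 0.0340; adjusted p = 0.9995) for 2-APB against control. HSPA9, which encodes a mitochondrial chaperone that links IP3 receptors to VDAC, had the highest mean of these 15 genes (10724), and the mitophagy receptor gene FUNDC1 the largest t with SKF-96365 against control (-0.30, SE 0.16; adjusted p = 0.789).

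Among 19 tested genes of endoplasmic reticulum calcium leak and buffering, the chaperone gene HSPA5 had the highest mean (25092). The largest t values belonged to RCN2, a reticulocalbin gene, with 2-APB against control (0.22, SE 0.11; limma adjusted p = 0.9995), to the chaperone gene HSP90B1 with SKF-96365 against control (0.20, SE 0.11; adjusted p = 0.789) and to CALU, calumenin, between the compounds (-0.38, SE 0.16; unadjusted p = 0.0329; adjusted p = 0.684). A further list of 9 genes was drawn up for calcium-regulated matrix enzymes, and not each of its genes need be one. In it PDP1, a phosphatase that activates pyruvate dehydrogenase, was at 1558, 1590 and 1376 in 2-APB 1 to 3, 1956, 3737 and 3861 in SKF-96365 1 to 3, and 1363, 1402 and 3335 in control 1 to 3. Its 3 highest libraries, SKF-96365 2 and 3 and control 3, were those of ATP2B4. Its log2 fold change was 0.72 (SE 0.35; adjusted p = 0.789) with SKF-96365 against control and -1.02 (SE 0.35; unadjusted p = 0.0143; adjusted p = 0.684) between the compounds. OGDH had the highest mean of that list (2576), and PDP2, a second such phosphatase, the largest t with 2-APB against control (-0.34, SE 0.22; adjusted p = 0.9995).

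Of 9 tested plasma membrane genes, the calmodulin gene CALM2 had the highest mean (15664), and calmodulin activates the PMCA pumps. CALM3 had the largest t with 2-APB against control (0.12, SE 0.10; limma adjusted p = 0.9995) and the exchanger gene SLC24A1 with SKF-96365 against control (0.38, SE 0.22; adjusted p = 0.789). ATP2B2 and ATP2B3, the PMCA genes of nerve and muscle, had means of 0.742 and 0.661. Of 7 Golgi genes, GPR89B had the largest t in both comparisons with control, at -0.44 (SE 0.26; adjusted p = 0.9995) with 2-APB and -0.48 (SE 0.26; adjusted p = 0.789) with SKF-96365. Its reads can be shared with its near-identical copy GPR89A, which had the opposite sign. GPR89A was at 0.31 (SE 0.30; adjusted p = 0.9995) with 2-APB and 0.39 (SE 0.30; adjusted p = 0.789) with SKF-96365 against control. TMEM165, a Golgi ion transporter gene, had the largest t between the compounds (-0.13, SE 0.11; adjusted p = 0.749). ATP2C2, the other SPCA gene, had a mean of 66.7.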

How the data were processed

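The deposited values are a normalized signal: gene counts that the authors divided by 1 DESeq2 size factor per library, as the deposited table's name says and per the submitters' processing notes, which give no version. How reads were aligned and counted, on which build and annotation and with which strand setting, is not given in the sources used here. Symbols were matched by Ensembl identifier (60593 of 61093 rows, 130 of them from GENCODE 29). In all 9 libraries, dividing by the smallest value above 0 gave whole reads for 100% of values (within 0.001 of a read). Count models were run without SKF-96365 3, whose step of 0.992 is close to 1, and, chosen after seeing the data, on all 9 libraries.

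The test was limma 3.58.1 (R 4.3.3) with an intensity trend on log2(normalized count + 1) over 17492 genes, with 3 two-sided contrasts, an F test, 1 shared spread per gene and Benjamini-Hochberg adjustment over all genes tested. Fold changes on this scale understate changes of low genes. edgeR 4.0.16 (quasi-likelihood test) and DESeq2 1.42.0 were run on recovered reads, and each tool was tested on simulated data. Other alternatives were pseudocounts of 0.5 and 5, libraries left out, a block for the replicate number, fits to 2 groups alone, a robust or untrended prior, and other filters and scalings. The members, the lists, the tests and the libraries to leave out were chosen with earlier results of these data known. Named genes are the members, the 3 genes most like each by Pearson r, and in each list the gene with the highest mean and that with the largest absolute t.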

Additional observations from a re-analysis of the deposited data

How the results depend on the processing

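The number of genes called was 0 in every comparison of the 9 libraries and stayed 0 under other pseudocounts, filters, scalings, priors and the replicate block, by edgeR on 8 or 9 libraries and by DESeq2 on 8. DESeq2 on all 9, chosen after seeing the data, called 1 with SKF-96365 against control and 7 between the compounds, and a fit of the 2 compound groups alone called 4. With 1 library left out the counts ran from 0 to 173 for SKF-96365 against control, 0 to 4 for 2-APB against SKF-96365 and 0 to 4 by the F test, the highest in each case without control 3. Without control 3 and SKF-96365 1 they were 4784, 2264 and 3522 in the same order, and without 2-APB 3 as well 6506, 2571 and 5841, with 1789 for 2-APB against control.

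Of 27 log2 fold changes of the members, 14 kept their sign under all 26 alternatives. ATP2A2 between the compounds turned to 0.0511 under quantile normalization, 0.0257 under total scaling and 0.0303 without control 3 and SKF-96365 1. In that last fit signs also turned for ATP2B4 (0.16), MCU (-0.0267) and TMCO1 (-0.14) with 2-APB against control, MCU with SKF-96365 against control (-0.0249), and ATP2B1 (-0.15) and MCU (-0.0018) between the compounds. Without 2-APB 3 as well they turned for ATP2B1 (0.0177), ATP2B4 (0.32), ATP2C1 (0.0106), MCU (-0.0824) and TMCO1 (-0.15) with 2-APB against control, and for MCU with SKF-96365 against control (-0.0249) and between the compounds (-0.0575). ATP2C1 with SKF-96365 against control was -0.0617 by edgeR and -0.0675 by DESeq2, both on 8 libraries without SKF-96365 3. The cause was not tested.

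With 1 library left out, ranges that crossed 0 were, with 2-APB against control, -0.28 to 0.0914 for ATP2B1, -0.32 to 0.16 for ATP2B4, -0.0267 to 0.10 for MCU and -0.14 to 0.15 for TMCO1. With SKF-96365 against control they were -0.00987 to 0.53 for ATP2A3, -0.29 to 0.0413 for ATP2B1, -0.0827 to 0.16 for ATP2C1, -0.0325 to 0.0900 for MCU and -0.26 to 0.0261 for TMCO1. Between the compounds they were -0.12 to 0.0303 for ATP2A2, -0.15 to 0.25 for ATP2B1 and -0.0499 to 0.0358 for MCU.

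With the replicate block the number of genes at an unadjusted p under 0.05 was 431 with 2-APB against control, 717 with SKF-96365 against control and 1259 between the compounds, and 0 were called. The labels do not say that the shared numbers 1 to 3 pair the samples. Same-numbered libraries of different groups correlated from -0.35 to 0.50 in their deviations from group means. Differently numbered ones ran from -0.57 to 0.48, so these ranges do not decide whether the numbers are pairs. Depth limits ATP2A3 most, at 93 reads in its lowest library.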
